A study of Homo sapiens with 24 samples.

Results

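The genes of RNA polymerase II (Pol II) and of the general transcription factors TFIIA, TFIIB, TFIID, TFIIE and TFIIF were followed in human osteosarcoma cells given THZ2, an inhibitor of CDK7. The 34 members were named as a set by what their products do, with earlier results of these data known. A member was measured where a probe set, the group of probes that reads one transcript, carried its symbol alone. This held for 33 of the 34, with 76 probe sets, out of 18132 genes measured in that way. TAF9 was named only together with AK6 and has no value here. All 33 passed the filter on low intensity, as did 16175 genes in all, and GTF2A1 passed through U2-OS alone.

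The data came from 24 Affymetrix PrimeView arrays of 2 established lines, U2-OS and SJSA-1. Cells of each line were given DMSO as the solvent control, or 1 of 3 doses of THZ2, 25, 100 and 400 nM, and were taken after 6 h, and each of the 8 groups held 3 arrays. The labels do not say whether those 3 arrays came from separate cultures, so the p-values measure only the spread between these arrays, which may be technical. The labels name no introduced allele in either line. A mean intensity is given ± its SD and a log2 change ± its standard error from limma, n = 3 arrays per group. Changes are on the scale log2 of the deposited intensity plus 16, which understates the change of dim genes. "Rose" and "fell" mark members whose limma p-value, adjusted over all 16175 genes by Benjamini-Hochberg, lay under 0.05.

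Pol II transcribes the protein-coding genes. At a promoter, TFIID, built of the TATA-binding protein TBP and its associated factors, the TAFs, recognises the DNA. TFIIA holds TBP on the DNA, TFIIB bridges TBP and the polymerase, TFIIF escorts the polymerase, and TFIIE brings in TFIIH. CDK7 is the kinase of TFIIH and phosphorylates the repeats at the tail of POLR2A, the largest Pol II subunit. THZ2 binds CDK7 covalently.

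The upstream promoter sequences of 7 members are shown because 6 of them fell at least 2-fold in both lines at 400 nM, whereas POLR2A rose in both lines at 100 nM. Each line gives the 150 bases before the annotated start, read 5′ to 3′ in the direction of the gene, from RefSeq on GRCh38.p14. Capitals mark matches on either strand to the TATA box core TATAAA, the CCAAT box (letters CCAAT), the GC box GGGCGG, the ETS core CCGGAA or the NRF1 stretch GCATGCGC, read also as the reverse complement. GC box matches can overlap each other. The stretch of TBP holds no match.
GTF2B, chr1:88891568-88891717, minus strand: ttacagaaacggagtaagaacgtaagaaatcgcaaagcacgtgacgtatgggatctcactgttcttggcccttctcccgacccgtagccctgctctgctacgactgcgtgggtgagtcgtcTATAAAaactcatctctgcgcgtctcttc
GTF2E1, chr3:120742594-120742743, plus strand: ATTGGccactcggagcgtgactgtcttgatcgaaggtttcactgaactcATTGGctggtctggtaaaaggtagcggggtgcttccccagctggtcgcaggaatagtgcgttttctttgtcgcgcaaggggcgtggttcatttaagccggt
TBP, chr6:170554219-170554368, plus strand: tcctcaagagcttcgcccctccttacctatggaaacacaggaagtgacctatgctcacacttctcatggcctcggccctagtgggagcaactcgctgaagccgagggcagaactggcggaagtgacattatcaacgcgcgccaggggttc
TAF4, chr20:62065882-62066031, minus strand: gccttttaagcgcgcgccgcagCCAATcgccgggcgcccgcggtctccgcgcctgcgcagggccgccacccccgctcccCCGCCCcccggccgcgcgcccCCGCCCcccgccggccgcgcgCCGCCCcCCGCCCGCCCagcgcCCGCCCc
TAF5, chr10:103367826-103367975, plus strand: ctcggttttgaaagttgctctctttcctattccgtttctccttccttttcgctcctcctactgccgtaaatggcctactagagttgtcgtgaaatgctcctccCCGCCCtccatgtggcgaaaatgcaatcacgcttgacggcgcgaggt
TAF7, chr5:141320785-141320934, minus strand: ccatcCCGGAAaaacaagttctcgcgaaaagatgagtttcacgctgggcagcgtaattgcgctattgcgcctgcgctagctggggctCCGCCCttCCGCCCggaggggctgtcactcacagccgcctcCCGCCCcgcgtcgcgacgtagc
POLR2A, chr17:7484216-7484365, plus strand: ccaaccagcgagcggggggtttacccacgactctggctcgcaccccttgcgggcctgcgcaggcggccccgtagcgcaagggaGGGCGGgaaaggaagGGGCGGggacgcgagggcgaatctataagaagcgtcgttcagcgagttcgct

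RefSeq promoter windows, from 250 bases before to 50 after a start, were found for 26 of the 34 members, 35 windows in all, against 35116 windows of all genes. GTF2B was the 1 member of the 26 with a TATAAA match, the core of a TATA box, whose first base lay 29 bases before the start; 11.5% of all windows held one. CCGGAA, the core bound by ETS factors, was in 51.4% of the members' windows and 17.2% of all windows. GGGCGG, a GC box, was in 60% and 45%, CCAAT in 20% and 34.6%, and GCATGCGC, part of the site of NRF1, in 8.57% and 3.05%. In the full windows of the 6 members shown that fell, CCAAT was matched in 4 and GGGCGG in 4, so no single motif was common to the 6. Some of these matches lie upstream of the printed stretches. Several members have more than 1 window, and windows of a gene overlap. A match describes letters and is neither a site nor a cause.

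Array medians of intensity lay between 33.5 and 37.3 for U2-OS and between 23.4 and 25.5 for SJSA-1. The 3 U2-OS arrays with 400 nM shared at most 0.00405% of identical values with the other 9 U2-OS arrays, which shared 1.67% to 5.47% among themselves, so they were taken as normalized apart, and there the dose of 400 nM cannot be told apart from its own normalization. The log2 intensity of 24 poly-A spike-in probe sets, RNA added before labelling, went from between 5.99 and 6.00 with DMSO to between 6.33 and 6.37 at 100 nM in U2-OS, and from between 6.74 and 7.39 with DMSO to between 7.38 and 8.90 at 400 nM in SJSA-1, where replicate 2 stood apart at 8.90. When arrays were centred on these spike-ins the median change of all genes moved from 0.06 to -0.30 at 100 nM and from 0.15 to -0.16 at 400 nM in U2-OS, and from 0.06 to -0.39 and from 0.10 to -0.84 in SJSA-1. The centring moves all genes of an array together, and in these comparisons it lowered them, rises included. What moved the spike-in levels was not tested. The deposited scaling is used below, and each called rise of a member that this centring turned negative is named. Of the called falls in U2-OS, 9 of 11 at 100 nM and 11 of 13 at 400 nM kept their call with it. TBP and TAF15 lost theirs at 100 nM, and GTF2E2 and TAF3 at 400 nM. In SJSA-1 all 12 falls at 100 nM and all 11 at 400 nM kept theirs. In SJSA-1 at 400 nM the centring also called lower 7 members that were positive and not called. POLR2C went from 0.10 to -0.84, GTF2A2 from 0.19 to -0.75 and GTF2E2 from 0.07 to -0.88. GTF2F2 went from 0.16 to -0.78, TAF12 from 0.14 to -0.81 and TAF15 from 0.06 to -0.88. GTF2A1, which went from 0.01 to -0.93, was under the filter intensity in all SJSA-1 groups, so its value restates the shift. VIM and other mesenchymal and bone markers summed to between 10310 and 10420 in U2-OS with DMSO and to between 13400 and 14150 in SJSA-1. In each line 1 of the 8 lay under the intensity of 12.73 that served as the filter. VIM and SPARC made up most of these sums, at means of 6927 and 2734 in U2-OS and 8464 and 4558 in SJSA-1. In U2-OS with DMSO COL1A1 and RUNX2 read 416.8 and 153. ALPL, BGLAP, SP7 and COL1A2 read 95.1, 24.7, 15.4 and 8.6 there, below the epithelial marker CLDN4 at 136.2. The sums thus rest mainly on VIM and SPARC and were no test of the tissue of origin. The labels give these cells as the source of the RNA, but the protocol for RNA extraction names another tissue. Summed over the 7 of 8 listed markers of nervous tissue that were named, the level lay between 306 and 315 with DMSO and between 417 and 453 with 400 nM in U2-OS, and between 127 and 132 and between 163 and 176 in SJSA-1. The 5 listed markers of epithelium summed to between 259 and 279 with DMSO and between 448 and 451 with 400 nM in U2-OS, and to between 125 and 159 and between 221 and 248.8 in SJSA-1. The 5 of 6 listed markers of blood that were named summed to between 184 and 189 and between 209 and 242 in U2-OS, and to between 128 and 148 and between 191 and 218 in SJSA-1. Of these, PTPRC was under the filter intensity in every group and HBB and CD68 were above it in every group. The part of these markers in the results was not tested.

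With 25 nM, few members were called. In U2-OS limma called 0 of 33, against 0.0804% of all genes (0.0247% higher and 0.0556% lower), while 5 members had an unadjusted p under 0.05, and a fit to the DMSO and 25 nM groups alone called 5. In SJSA-1, 4 members were called, 12.1%, against 8.25% of all genes (1.97% higher and 6.28% lower). POLR2A rose by 0.45 ± 0.12 and TAF3, which reads a methylated histone tail, by 0.37 ± 0.11. TAF12, a histone-fold partner of TAF4, fell by 0.72 ± 0.09, and GTF2E1, the larger TFIIE subunit, fell by 0.42 ± 0.13. The GTF2E1 call (adjusted p = 0.0419) was lost without any 1 of the 6 arrays, at changes between -0.47 and -0.37. It was also lost as a mean of its probe sets, at -0.17, with quantile normalization, at -0.40, and with a pseudocount of 1, at -0.44, and that of TAF3 as a mean of probe sets, at 0.25, and in a fit to only the groups compared. POLR2A lost its call without SJSA-1 25 nM replicate 3, at 0.42, and TAF3 without SJSA-1 DMSO replicate 3, 25 nM replicate 1 or 25 nM replicate 3, at 0.27, 0.33 and 0.38.

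With 100 nM, falls outnumbered rises among the members in both lines. In U2-OS 11 of 33 fell, 33.3%, against 22.2% of all genes, and 5 rose, 15.2%, against 19.8%. In SJSA-1 12 fell, 36.4%, against 25.1%, and 7 rose, 21.2%, against 24.4%. The same 10 members fell in both lines, 30.3%, against 16.8% of all genes: POLR2D, POLR2H, GTF2E1, GTF2E2, TBP, TAF1, TAF2, TAF4, TAF5 and TAF12. With spike-in centring TBP lost its call in U2-OS. POLR2A, POLR2F and TAF3 rose in both, 9.09%, against 10.3% of all genes, though with spike-in centring POLR2F in both lines and TAF3 in SJSA-1 turned negative, and no member was called in opposite directions. The medians over the 33 members, 0.05 in U2-OS and 0.03 in SJSA-1, lay near those of all genes, 0.06 in both.

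With 400 nM, 24 of 33 members were called in U2-OS and 21 in SJSA-1. In U2-OS 13 fell, 39.4%, against 25% of all genes, and 11 rose, 33.3%, against 48.4%. In SJSA-1 11 fell, 33.3%, against 24.9%, and 10 rose, 30.3%, against 41.4%. In both lines 10 members fell, 30.3%, against 17.1% of all genes: POLR2B, POLR2D, GTF2B, GTF2E1, TBP, TAF1, TAF3, TAF4, TAF5 and TAF7. With spike-in centring TAF3 lost its call in U2-OS. Those that fell at least 2-fold were the same 6 in either line, GTF2B, GTF2E1, TBP, TAF4, TAF5 and TAF7, 18.2% of the members, against 6.92% of all genes in U2-OS and 8.51% in SJSA-1. In both lines POLR2E, POLR2G, POLR2I, POLR2J, POLR2L, TAF6 and TAF10 rose, 21.2%, against 28.6% of all genes, but with spike-in centring no rise in SJSA-1 was called and in U2-OS only that of POLR2L was. From 100 to 400 nM 28 members were called in U2-OS, 84.8%, against 64.6% of all genes, and 12 in SJSA-1, 36.4%, against 26.6%. From 25 to 100 nM they were 16, 48.5%, against 48.1%, and 17, 51.5%, against 41.6%. The median of the members was -0.09 in U2-OS and 0.01 in SJSA-1, against 0.15 and 0.10 over all genes.

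**Figure D1:**
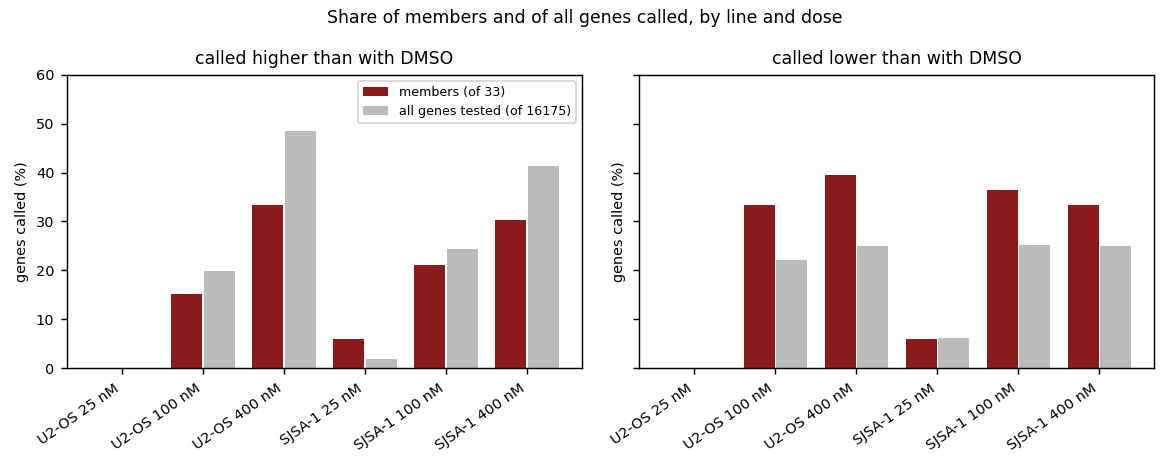
Bars give the percentage of genes called higher (left) or lower (right) than with DMSO in limma, by line and dose, for the 33 members (red) and all 16175 genes tested (grey). The members' share of falls was 33.3% to 39.4% at 100 and 400 nM, beside 22.2% to 25.1% of all genes, while their share of rises lay below that of all genes at those doses, on the deposited scaling.

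With the spike-in centring set aside, 10 of the 11 falls in U2-OS and 10 of the 12 in SJSA-1 at 100 nM kept their call under the other 8 alternatives and without any 1 array, against 73.7% and 76.6% of the falls of all genes. At 400 nM 11 of 13 and 9 of 11 did, against 75.9% and 77.1%. Of the rises, 3 of 5 and 2 of 7 at 100 nM kept it, against 41.1% and 45.1% of the rises of all genes, and 8 of 11 and 5 of 10 at 400 nM, against 70.7% and 58%. Quantile normalization ended the rises of POLR2E, POLR2F, POLR2G and POLR2L in SJSA-1 at 100 nM, at 0.19, 0.19, 0.14 and 0.17, and that of POLR2I at 400 nM, at 0.21. A fit to only the groups compared ended, in SJSA-1, the rises of POLR2E, POLR2F and POLR2G and the fall of POLR2B at 100 nM, and the rises of POLR2E, POLR2F, POLR2I and TAF10 at 400 nM, with no change in their values.

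**Figure D2:**
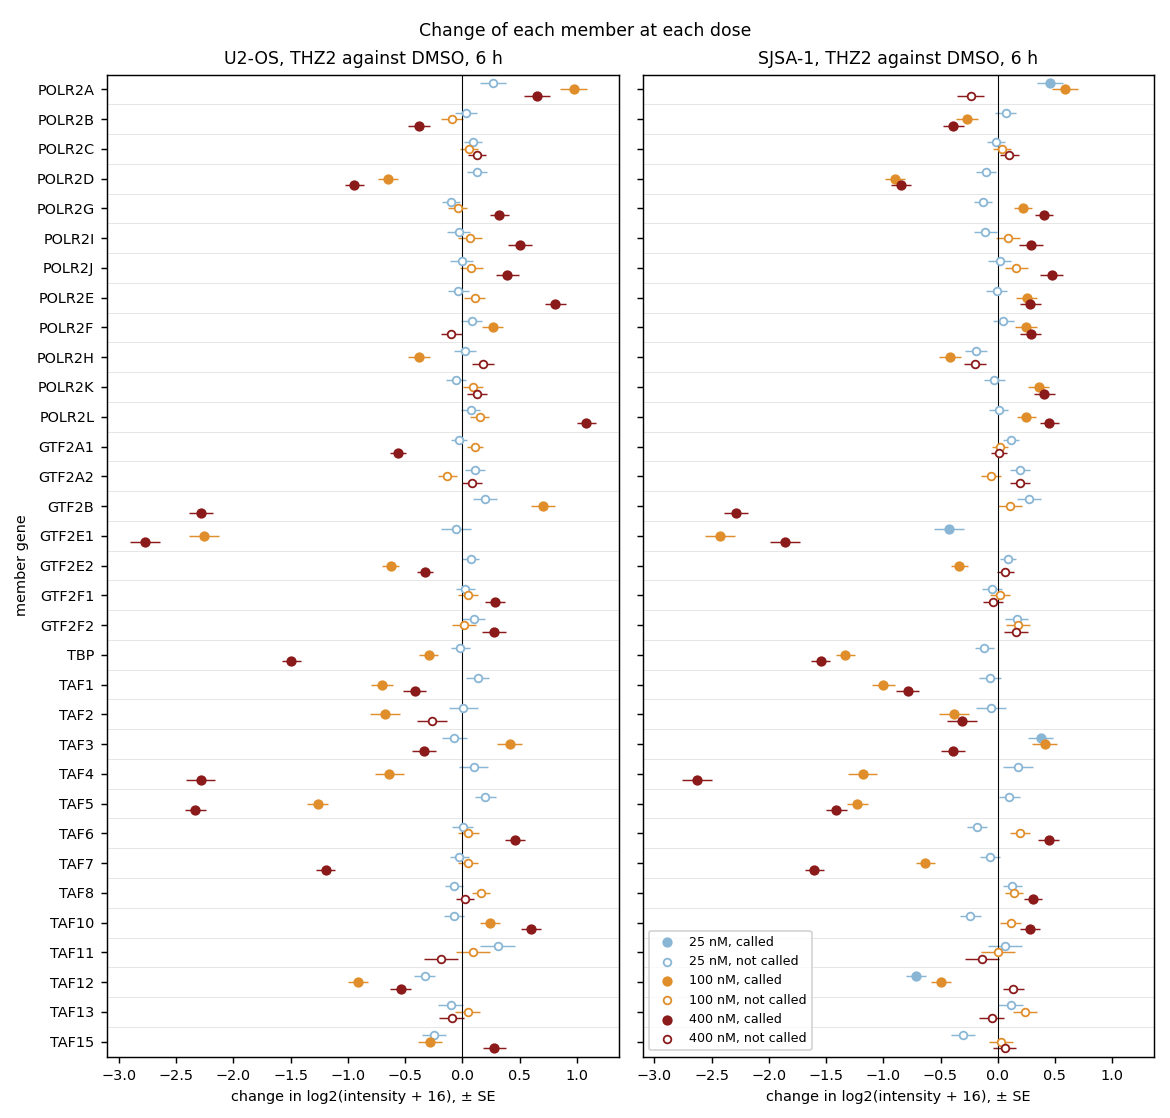
Each row is a member and the x axis its change in log2(intensity + 16) against DMSO, with bars for ± SE, in U2-OS (left) and SJSA-1 (right) at 25 nM (blue), 100 nM (orange) and 400 nM (red). Filled points passed limma's threshold. The farthest points to the left at 400 nM belong to GTF2E1, TAF5, TAF4 and GTF2B in U2-OS and to TAF4, GTF2B, GTF2E1 and TAF7 in SJSA-1. Points to the right lie mostly among the Pol II subunits, and in SJSA-1 the called ones at 400 nM turn negative with spike-in centring.

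Among the Pol II subunits, POLR2A stood apart. POLR2A, which holds the catalytic centre with POLR2B, read 183, 194 and 181 on the U2-OS arrays with DMSO, 221, 240 and 223 at 25 nM, 346, 393 and 404 at 100 nM, and 248, 316 and 350 at 400 nM. In SJSA-1 it read 170, 208 and 204 with DMSO, 276, 253 and 284 at 25 nM, 304, 307 and 284 at 100 nM, and 133, 201 and 158 at 400 nM. All arrays at 25 and 100 nM lay above all DMSO arrays in both lines, and at 400 nM those of SJSA-1 overlapped DMSO while those of U2-OS did not.

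POLR2A rose by 0.97 ± 0.12 (limma adjusted p = 6.18e-08) in U2-OS at 100 nM, to 205% of the DMSO mean, and by 0.65 ± 0.12 at 400 nM. In SJSA-1 it rose by 0.59 ± 0.12 (limma adjusted p = 0.000112) at 100 nM and changed by -0.24 ± 0.12 at 400 nM, which did not pass (limma adjusted p = 0.0700). From 100 to 400 nM in U2-OS it fell by 0.32 ± 0.12, and in SJSA-1 by more, with a change of -0.82 ± 0.12. The 2 other POLR2A probe sets changed by 0.39 and 0.36 in U2-OS at 100 nM and by 0.21 and 0.60 in SJSA-1. At 400 nM in SJSA-1 the probe sets went both ways, from -0.24 to 0.29. Without SJSA-1 DMSO replicate 1 or 400 nM replicate 2 the main one was called lower there, at -0.32 and -0.38, as it was with spike-in centring, at -1.18. With spike-in centring POLR2A stayed positive at 100 nM without a call, at 0.61 in U2-OS and 0.14 in SJSA-1.

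POLR2D, a subunit of the stalk beside the RNA exit, was the subunit with the largest fall. It read 275, 275 and 286 with DMSO, 166, 174 and 175 at 100 nM, and 123, 145 and 145 at 400 nM in U2-OS, and 180, 218 and 184, then 93.7, 108 and 86.8, then 108, 97.7 and 96.3 in SJSA-1. No array at 100 or 400 nM reached the lowest DMSO array in either line. The changes were -0.65 ± 0.09 and -0.94 ± 0.09 in U2-OS and -0.90 ± 0.09 and -0.85 ± 0.09 in SJSA-1. POLR2G, its partner in the stalk, rose instead at 400 nM, by 0.32 ± 0.08 in U2-OS and 0.41 ± 0.08 in SJSA-1, directions that in SJSA-1 turned with spike-in centring.

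POLR2B fell by 0.38 ± 0.10 in U2-OS and 0.39 ± 0.10 in SJSA-1 at 400 nM. Its fall of 0.27 in SJSA-1 at 100 nM lost its call without SJSA-1 DMSO replicate 1, at -0.12, or without 100 nM replicate 1, at -0.18. POLR2I, a small subunit that aids fidelity, rose by 0.50 ± 0.10 and 0.29 ± 0.10 at 400 nM in U2-OS and SJSA-1. POLR2J, an assembly subunit, rose by 0.39 ± 0.10 and 0.47 ± 0.10. POLR2C, with which POLR2J pairs, was called at no dose in either line by its brightest probe set, which lay between -0.01 and 0.13. In U2-OS at 400 nM its 4 probe sets spanned -0.77 to 0.38, and 1 of them was called lower. In SJSA-1 the rises of POLR2I and POLR2J turned negative with spike-in centring, and that of POLR2I was lost without SJSA-1 DMSO replicate 1, at 0.16, or 400 nM replicate 2, at 0.13.

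Of the 5 subunits that Pol II shares with the other nuclear polymerases, POLR2L had the largest rise. It read 1133, 1134 and 1129 with DMSO, 1155, 1196 and 1224 at 25 nM, 1195, 1279 and 1306 at 100 nM, and 2276, 2423 and 2563 at 400 nM in U2-OS. In SJSA-1 it read 1399, 1698 and 1698, then 1541, 1710 and 1563, then 1965, 1951 and 1783, then 2048, 2574 and 1965. The groups with DMSO and 400 nM did not overlap in either line. The rise at 400 nM was 1.08 ± 0.08 (limma adjusted p = 3.61e-12) in U2-OS, and it kept its call with spike-in centring at 0.77. POLR2L was the 1 member of 33 that rose 2-fold there, a share near the 2.95% of all genes. Its 3 probe sets spanned 0.55 to 1.08. In SJSA-1 the rise was 0.45 ± 0.08, and -0.49 with spike-in centring.

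POLR2E read 440, 404 and 428 with DMSO and 706, 744 and 818 at 400 nM in U2-OS, a rise of 0.81 ± 0.09 with no overlap. In SJSA-1, at 815, 1105 and 1105 against 1218, 1314 and 1136, it rose by 0.29 ± 0.09, and by 0.14 without a call when SJSA-1 DMSO replicate 1 was left out. That array was the lowest of its group for POLR2E, POLR2F, POLR2G, POLR2I and POLR2L, and without it the rises of POLR2E, POLR2F, POLR2G and POLR2L at 100 nM, main values 0.25, 0.25, 0.22 and 0.25, came to 0.11, 0.14, 0.13 and 0.16 and were not called. Without SJSA-1 100 nM replicate 1 POLR2E and POLR2L also lost it, at 0.22 and 0.23, and without replicate 2 of that dose POLR2E, POLR2F and POLR2G, at 0.23, 0.22 and 0.19. With spike-in centring all 4 were negative at 100 and at 400 nM in SJSA-1. POLR2F also lost its call at 400 nM without that array, from 0.29 to 0.18, and without 400 nM replicate 2, at 0.18. In U2-OS POLR2F read 1766, 1723 and 1824 with DMSO and 2051, 2107 and 2243 at 100 nM, a rise of 0.27 ± 0.09 that was -0.09 with spike-in centring and was lost without U2-OS DMSO replicate 1 or 2 or 100 nM replicate 3, at 0.23 to 0.26.

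POLR2H read 730, 713 and 698 with DMSO and 511, 573 and 557 at 100 nM in U2-OS, and 820, 1017 and 969 and then 648, 739 and 699 in SJSA-1. It fell by 0.38 ± 0.10 and 0.42 ± 0.10, with no overlap in either line, and was called in neither at 400 nM. POLR2K rose in SJSA-1 by 0.36 ± 0.09 at 100 nM and 0.41 ± 0.09 at 400 nM, and both values were negative with spike-in centring, at -0.09 and -0.54. In U2-OS it changed by 0.09 and 0.13, and the difference between the lines at 400 nM, 0.28 (95% interval 0.02 to 0.54), did not pass (limma adjusted p = 0.0728).

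Of the general factors that act beside TFIID, TFIIB and TFIIE moved most. GTF2B encodes TFIIB. It read 604, 619 and 631 with DMSO, 696, 721 and 721 at 25 nM, 964, 1086 and 998 at 100 nM, and 86.2, 129 and 134 at 400 nM in U2-OS. In SJSA-1 it read 478, 443 and 440, then 549, 584 and 523, then 437, 545 and 491, then 75.1, 76.1 and 89.3. The path with dose was not monotonic in U2-OS, where every array at 100 nM lay above and every array at 400 nM far below the DMSO arrays. GTF2B rose by 0.70 ± 0.10 (limma adjusted p = 3.59e-06) at 100 nM and fell by 2.28 ± 0.10 (limma adjusted p = 1.03e-16) at 400 nM, to 18.8% of the DMSO mean. In SJSA-1 it changed by 0.11 ± 0.10 at 100 nM (limma adjusted p = 0.402) and fell by 2.29 ± 0.10 (limma adjusted p = 9.57e-17) at 400 nM, to 17.7%. With spike-in centring the value at 100 nM in U2-OS was 0.34 without a call. GTF2B is the member whose promoter holds the TATAAA match shown above.

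GTF2E1 had already fallen most at 100 nM. It read 331, 359 and 338 with DMSO, 51.0, 69.6 and 57.3 at 100 nM, and 41.1, 38.02 and 31.2 at 400 nM in U2-OS, and 407, 367 and 355, then 50.2, 80.5 and 44.0, then 97.7, 107 and 73.5 in SJSA-1. No treated array at these doses came near DMSO, and in SJSA-1 the mean at 400 nM, 92.7 ± 17.2, was above that at 100 nM, 58.2 ± 19.5. The changes were -2.26 ± 0.13 and -2.77 ± 0.13 in U2-OS, and -2.43 ± 0.13 and -1.86 ± 0.13 in SJSA-1. From 100 to 400 nM GTF2E1 fell by 0.51 ± 0.13 in U2-OS and rose by 0.57 ± 0.13 (limma adjusted p = 0.00146) in SJSA-1, although those arrays overlap. Its other probe set, with a mean intensity of 15.6, changed by 0.15 in U2-OS and fell by 0.33 in SJSA-1 at 100 nM.

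GTF2E2, the smaller TFIIE subunit, changed less and reached its lowest level at 100 nM. It read 309, 295 and 294 with DMSO, 180, 192 and 192 at 100 nM, and 244, 234 and 227 at 400 nM in U2-OS, and 377, 402 and 388, then 307, 333 and 278, then 402, 428 and 396 in SJSA-1. The changes were -0.63 ± 0.07 and -0.33 ± 0.07 in U2-OS. In SJSA-1 it fell by 0.33 ± 0.07 at 100 nM, and at 400 nM the change was 0.07 ± 0.07.

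GTF2A1, the larger TFIIA subunit, fell in U2-OS at 400 nM by 0.56 ± 0.07, from 55.0 ± 2.1 to 32.2 ± 3.3. It lay under the intensity of 12.73 in all SJSA-1 groups, where no fold is given. GTF2A2, the small TFIIA subunit, was called against DMSO at no dose by its brightest probe set, with changes between -0.13 and 0.20. Its 4 probe sets disagreed. In U2-OS at 400 nM they spanned -0.34 to 0.52, with 2 called lower, and in SJSA-1 at 100 nM 1 rose by 0.25. GTF2F1 and GTF2F2, the TFIIF subunits, rose in U2-OS at 400 nM, by 0.29 ± 0.09 and 0.28 ± 0.10. Both turned negative with spike-in centring, at -0.03 and -0.04. GTF2F1 was not called as a mean of its probe sets, at 0.09, and GTF2F2 was called neither with median centring, at 0.20, nor with quantile normalization, at 0.14, nor without U2-OS DMSO replicate 1, at 0.26.

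**Figure D3:**
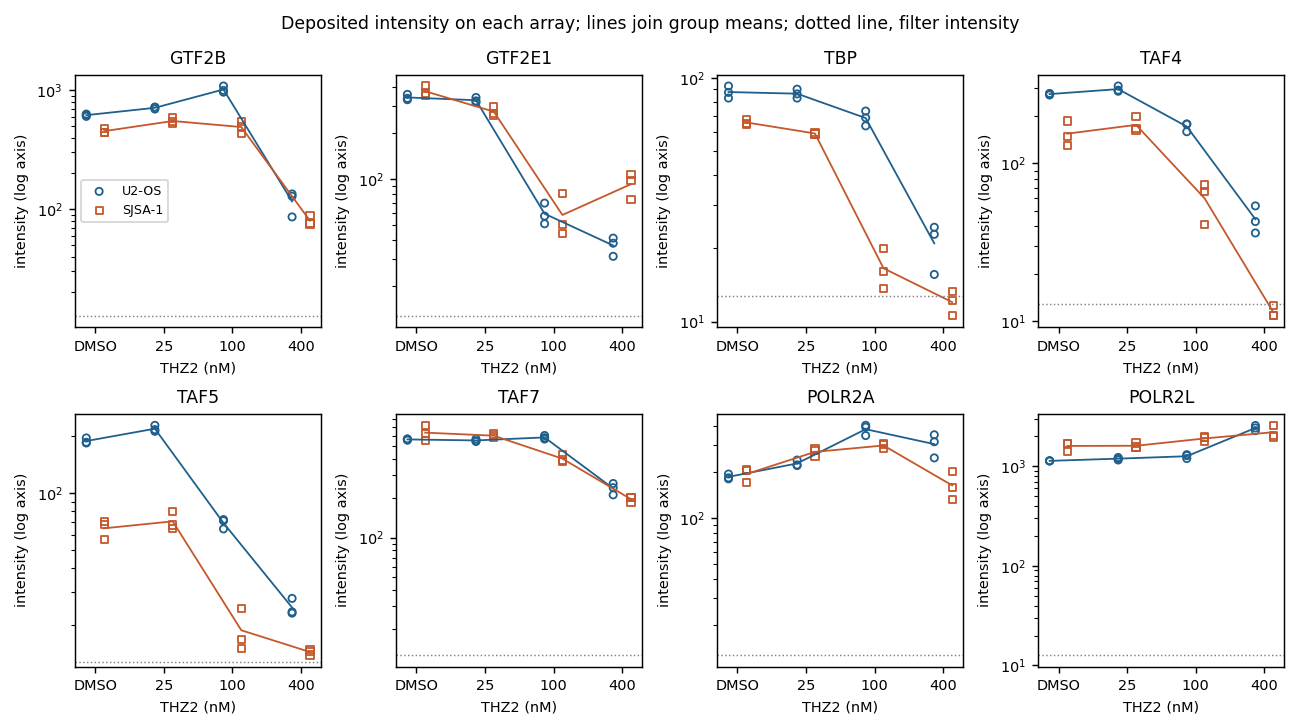
Each point is the deposited intensity (log axis) on 1 array, U2-OS as blue circles and SJSA-1 as orange squares, against the THZ2 dose in nM, with 3 arrays per group and lines through group means. The dotted line is the filter intensity of 12.73. GTF2B falls between 100 and 400 nM in both lines and GTF2E1 already at 100 nM, all above the dotted line, and TBP falls at 100 nM in SJSA-1 (16.5 ± 3.2) but mainly at 400 nM in U2-OS (20.9 ± 4.7).

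Of the 14 measured members of TFIID, 7 fell in each line at each of 100 and 400 nM, where 22.2% to 25.1% of all genes fell. In U2-OS 2 rose at 100 nM and 3 at 400 nM, and in SJSA-1 1 and 3, where 19.8% to 48.4% of all genes rose. TBP, which binds the TATA box and serves all nuclear polymerases, read 82.7, 92.6 and 87.2 with DMSO, 73.1, 63.6 and 68.6 at 100 nM, and 15.6, 22.8 and 24.4 at 400 nM in U2-OS. In SJSA-1 it read 64.9, 64.5 and 67.7, then 13.6, 20.0 and 16, then 13.3, 12.2 and 10.6. At 100 nM the U2-OS arrays were just below those with DMSO, whereas the SJSA-1 arrays were already at 25.2% of the DMSO mean. TBP fell by 0.29 ± 0.08 (limma adjusted p = 0.00559) and 1.49 ± 0.08 in U2-OS, and by 1.33 ± 0.08 (limma adjusted p = 1.20e-13) and 1.54 ± 0.08 in SJSA-1. Its mean at 400 nM in SJSA-1 lay under 12.73, so the fall there is at least 5.09-fold, each array being set to at least that intensity.

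The effect of 100 nM on TBP differed between the lines, by -1.04 (95% interval -1.28 to -0.80, limma adjusted p = 2.06e-07), and that of 400 nM by -0.05 (95% interval -0.29 to 0.19). The SJSA-1 mean behind the latter lay under the filter intensity. A second TBP probe set, of like intensity, fell by 0.30 in U2-OS and 1.04 in SJSA-1 at 100 nM and by 1.36 and 1.26 at 400 nM. The third, with a mean of 11.6, rose by 0.24 at 100 nM in SJSA-1 and was called nowhere else against DMSO. Averaging the 3 left TBP called lower at 400 nM in both lines.

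TAF4 and TAF5, scaffold subunits of TFIID, had the largest falls of TFIID at 400 nM in U2-OS. TAF4 read 272, 277 and 278 with DMSO, 159, 178 and 178 at 100 nM, and 36.2, 42.8 and 53.8 at 400 nM in U2-OS, and 148, 186 and 130, then 66.3, 73.0 and 40.8, then 10.8, 10.8 and 12.6 in SJSA-1. The groups with 100 and 400 nM overlapped neither each other nor DMSO in either line. The changes were -0.64 ± 0.13 and -2.29 ± 0.13 in U2-OS, and -1.18 ± 0.13 and -2.63 ± 0.13 (limma adjusted p = 3.75e-16) in SJSA-1. All 3 SJSA-1 arrays at 400 nM lay under 12.73, which makes the fall there at least 12.0-fold.

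TAF5 read 184, 186 and 196 with DMSO, 64.6, 72.3 and 71.3 at 100 nM, and 27.6, 23.1 and 23.4 at 400 nM in U2-OS, and 70.5, 68.1 and 56.5, then 14.9, 24.4 and 16.8, then 14.4, 14.8 and 13.8 in SJSA-1. In SJSA-1 both doses left it just above the filter intensity. It fell by 1.26 ± 0.09 and 2.33 ± 0.09 (limma adjusted p = 3.27e-18) in U2-OS, and by 1.23 ± 0.09 and 1.41 ± 0.09 in SJSA-1. The line difference at 400 nM, 0.92 (95% interval 0.66 to 1.18), has this low SJSA-1 level beside it.

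TAF7, a partner that binds TAF1, read 554, 565 and 565 with DMSO, 578, 601 and 565 at 100 nM, and 212, 259 and 241 at 400 nM in U2-OS, and 719, 553 and 626, then 380, 431 and 391, then 202, 185 and 202 in SJSA-1. At 100 nM the U2-OS arrays were level with DMSO and the SJSA-1 arrays all below it. It changed by 0.05 ± 0.08 in U2-OS and fell by 0.63 ± 0.08 in SJSA-1 at 100 nM, a difference of -0.68 (95% interval -0.93 to -0.44, limma adjusted p = 0.000116). At 400 nM it fell by 1.19 ± 0.08 and 1.60 ± 0.08.

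TAF1, the largest TFIID subunit, read 143, 141 and 138 with DMSO, 77.4, 85.3 and 78.3 at 100 nM, and 96.3, 108 and 99.9 at 400 nM in U2-OS, and 86.8, 68.1 and 62.7, then 27.7, 32.2 and 24.4, then 35.5, 29.7 and 40.2 in SJSA-1. The lowest levels were those at 100 nM, with no overlap with DMSO at either dose. The changes were -0.70 ± 0.10 and -0.42 ± 0.10 in U2-OS and -1.0 ± 0.10 and -0.79 ± 0.10 in SJSA-1. At 100 nM 2 of the 3 TAF1 probe sets were negative in each line, and the highest lay at 0.09 in U2-OS and 0.07 in SJSA-1. A TAF1 probe set with a mean of 12.2 rose at 400 nM, by 0.40 in U2-OS and 0.19 in SJSA-1. At that dose only 1 of the 3, the brightest, was negative in U2-OS, and 2 of the 3 were in SJSA-1. The mean of the 3 probe sets gave 0.05 in U2-OS at 400 nM. TAF1 also has 2 probe sets shared with TAF1L, which were not used.

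TAF12 was lowest at an intermediate dose. It read 151, 158 and 141 with DMSO, 100, 122 and 127 at 25 nM, 65.4, 73.1 and 78.6 at 100 nM, and 92.8, 100.6 and 102 at 400 nM in U2-OS. In SJSA-1 it read 172, 180 and 172, then 107, 99.7 and 94.4, then 118, 119 and 121, then 220, 191 and 172. The lowest mean was thus at 100 nM in U2-OS, 72.4 ± 6.6, and at 25 nM in SJSA-1, 100.3 ± 6.3. From 100 to 400 nM TAF12 rose by 0.37 ± 0.09 in U2-OS and 0.63 ± 0.09 in SJSA-1, where the change at 400 nM against DMSO, 0.14 ± 0.09, did not pass.

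TAF2, which contacts the start site, read 392, 415 and 428 with DMSO and 264, 265 and 226 at 100 nM in U2-OS, and 142, 94.4 and 97.7 and then 69.1, 83.9 and 89.3 in SJSA-1. It fell by 0.68 ± 0.13 and 0.38 ± 0.13 with no overlap. The SJSA-1 fall lost its call without SJSA-1 DMSO replicate 1, the highest array of its group, at -0.22, or without 100 nM replicate 1, at -0.29. At 400 nM the fall in SJSA-1, 0.32 ± 0.13, was also lost without that DMSO array, at -0.15, or without 400 nM replicate 1 or 2, at -0.20 and -0.27. Quantile normalization ended the SJSA-1 falls at 100 and 400 nM, at -0.25 and -0.12, the mean of probe sets that at 100 nM, at -0.28, and median centring, a pseudocount of 64 and a fit to only the groups compared that at 400 nM, at -0.26, -0.22 and -0.32.

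TAF3 read 103, 110 and 104 with DMSO, 136, 155 and 150 at 100 nM, and 67.5, 82.1 and 94.2 at 400 nM in U2-OS, and 63.1, 73.5 and 51.3, then 85.6, 105 and 75.1, then 38.6, 45.6 and 46.9 in SJSA-1. All arrays at 100 nM lay above and all at 400 nM below DMSO in both lines. It rose by 0.42 ± 0.11 and 0.41 ± 0.11 at 100 nM, the latter -0.03 with spike-in centring, and fell by 0.33 ± 0.11 and 0.39 ± 0.11 at 400 nM. As a mean of its probe sets TAF3 changed by 0.001 at 100 nM in SJSA-1 (limma adjusted p = 0.992), and quantile normalization ended the SJSA-1 fall at 400 nM, at -0.21. The U2-OS fall lost its call without U2-OS 400 nM replicate 1, at -0.23. Its probe sets disagreed: one with a mean of 76.9 fell by 0.79 at 100 nM in SJSA-1, where the others rose, and by 1.70 at 400 nM in U2-OS, where another with a mean of 67.6 rose by 0.22.

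**Figure D4:**
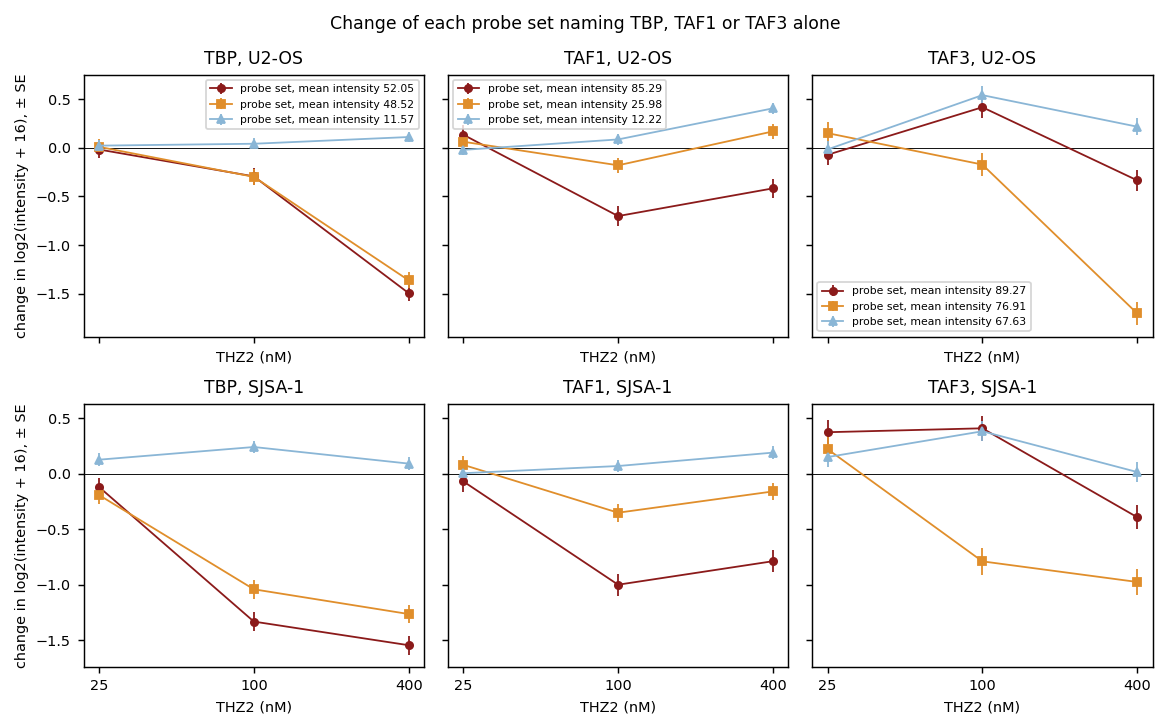
Lines give the change in log2(intensity + 16) against DMSO (± SE) of each probe set that names TBP, TAF1 or TAF3 alone, by THZ2 dose in nM, in U2-OS (top) and SJSA-1 (bottom). The brighter pair for TBP fell together and the third, with a mean of 11.6, did not fall. The probe sets of TAF1 and TAF3 separate at 400 nM in both lines, in SJSA-1 from -0.79 to 0.19 and from -0.975 to 0.02. At 100 nM those of TAF1 spanned -0.70 to 0.09 in U2-OS and -1.0 to 0.07 in SJSA-1. Those of TAF3 spanned -0.17 to 0.54 in U2-OS and -0.79 to 0.41 in SJSA-1.

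The remaining TAFs had few calls by their brightest probe sets, and among these only TAF15 was called lower, in U2-OS at 100 nM. TAF6, which pairs with TAF9, rose at 400 nM by 0.46 ± 0.09 in U2-OS and 0.45 ± 0.09 in SJSA-1, the latter -0.50 with spike-in centring. TAF10, also a subunit of the SAGA complex, rose by 0.60 ± 0.09 and 0.28 ± 0.09, the latter -0.66 with spike-in centring and lost without SJSA-1 DMSO replicate 1, at 0.16, or 400 nM replicate 2, at 0.19. Its rise of 0.24 at 100 nM in U2-OS was -0.12 with spike-in centring and lost its call without any 1 of 5 of the 6 arrays, at 0.20 to 0.24, all but U2-OS 100 nM replicate 1. TAF8, which joins TAF10 to the core, rose at 400 nM in SJSA-1 by 0.31 ± 0.08, but changed by -0.02 as a mean of its probe sets and by -0.64 with spike-in centring. Of its 3 probe sets, 2 were called lower in SJSA-1 at 100 nM, the lowest at -0.37. At 400 nM in SJSA-1, and at 100 and 400 nM in U2-OS, 1 was called lower. TAF15, an RNA-binding protein of the FET family, changed by -0.28 ± 0.10 at 100 nM and 0.28 ± 0.10 at 400 nM in U2-OS, the latter -0.03 with spike-in centring. The first call was lost without U2-OS DMSO replicate 1 or 2 or 100 nM replicate 2 or 3, at -0.27 to -0.18, and the second without U2-OS DMSO replicate 3 or 400 nM replicate 3, at 0.16 and 0.24, with median centring, at 0.20, or with quantile normalization, at 0.14. TAF11 and TAF13, a histone-fold pair, were called against DMSO at no dose, with changes between -0.19 and 0.31.

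The effect of THZ2 was compared between the lines by the difference of the 2 changes. At 25 nM limma called 0 of 33 differences, against 1.09% of all genes, with 2 members at an unadjusted p under 0.05, TAF3 and TAF12. At 100 nM 5 were called, 15.2%, near the 16.9% of all genes: TBP, GTF2B, TAF4 and TAF7 were lower in SJSA-1 relative to U2-OS and TAF12 was higher. At 400 nM 15 were called, 7 higher and 8 lower in SJSA-1. This was 45.5%, near the 45.9% of all genes, and there the dose in U2-OS shares its normalization with no DMSO array. The 15 include GTF2A1, whose SJSA-1 levels were under the filter intensity in every group, so that its difference restates the U2-OS fall. The largest were GTF2E1 and TAF5, which fell further in U2-OS, and POLR2A, which stayed above DMSO in U2-OS. With spike-in centring the differences of GTF2E1 and TAF5 were 0.28 and 0.29 and not called, and as a mean of its probe sets GTF2E1 gave 0.17, also not called. For TAF4 the difference at 100 nM, -0.54 (95% interval -0.92 to -0.17), lost its call without any 1 of 7 of the 12 arrays, at -0.55 to -0.34, the smallest without SJSA-1 100 nM replicate 3, and also with median centring, quantile normalization, a pseudocount of 64 and a fit to only the groups compared, at -0.54 to -0.29. That of TAF12, 0.42 (95% interval 0.16 to 0.68), lost it without U2-OS DMSO replicate 2 or 100 nM replicate 1, at 0.38 and 0.36.

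GTF2B, TBP and TAF4 did not pass at 400 nM, with intervals for the difference of -0.32 to 0.30, -0.29 to 0.19 and -0.72 to 0.03. The SJSA-1 means of TBP and TAF4 at that dose, 12.0 and 11.4, lay under the filter intensity. Their falls there are lower bounds, so these intervals do not show equal falls in the lines. For GTF2E1 and TAF5 at 100 nM the intervals were -0.55 to 0.21 and -0.23 to 0.30.

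**Figure D5:**
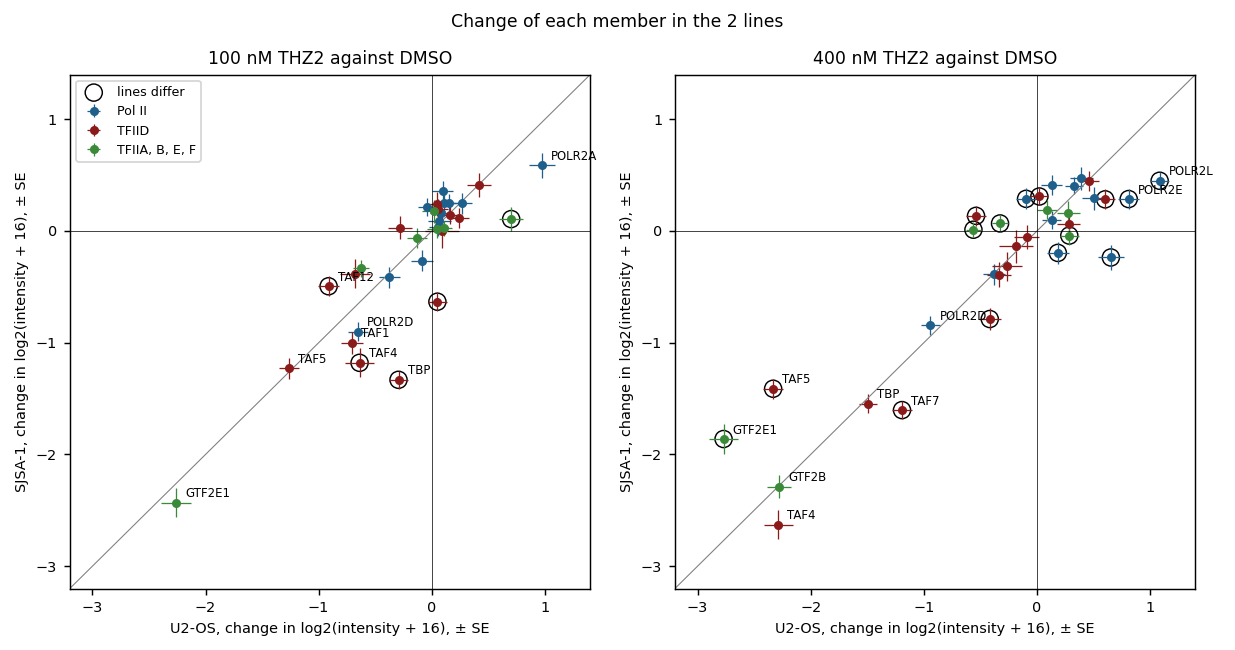
Each point is a member, with its change in log2(intensity + 16) against DMSO (± SE) in U2-OS on the x axis and SJSA-1 on the y axis, at 100 nM (left) and 400 nM (right), coloured by complex. Rings mark the 5 and 15 members whose changes differed between the lines in limma, and the diagonal marks equal change. TBP lies below the diagonal at 100 nM, and GTF2E1 and TAF5 above it at 400 nM.

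Genes that act beside these factors were taken from lists chosen with earlier results of these data known. Of TFIIH and its kinase module, 8 of 10 listed genes were tested. At 400 nM 5 fell and 3 rose in U2-OS, against 25% and 48.4% of all genes, and 3 fell and 2 rose in SJSA-1, against 24.9% and 41.4%, but with spike-in centring 0 rises were called in either line and both of those in SJSA-1 turned negative. CDK7 itself went from 547 ± 19 with DMSO to 123 ± 23 at 400 nM in U2-OS, and its SJSA-1 mean went from 457 ± 33 to 122 ± 14, changes of -2.03 ± 0.10 and -1.78 ± 0.10. GTF2H1, a core TFIIH subunit, had its lowest mean at 100 nM in both lines, at 101.2 ± 10.4 and 162 ± 17 against 351 ± 2 and 445 ± 55 with DMSO, as TAF1 and GTF2E2 did.

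Of the relatives of TFIID subunits and regulators of TBP, 9 of 11 were tested, and 4 fell and 3 rose at 400 nM in each line, beside the same shares of all genes, the rises again with 0 called under spike-in centring. TBPL1, a TBP paralog, fell by 2.46 ± 0.10 in U2-OS and 1.33 ± 0.10 in SJSA-1. BTAF1, which removes TBP from DNA, fell by 1.44 ± 0.15 and 1.68 ± 0.15. TAF9B, a paralog of TAF9, rose by 0.75 ± 0.12 and 0.64 ± 0.12, or 0.44 and -0.30 with spike-in centring, neither called. TAF5L, a paralog of TAF5, fell by 0.64 ± 0.09 and 1.03 ± 0.09.

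Of 20 genes for the assembly of Pol II and for phosphatases of the POLR2A tail, 8 fell and 2 rose in U2-OS at 100 nM, against 22.2% and 19.8% of all genes, and 8 fell and 3 rose in SJSA-1, against 25.1% and 24.4%, where the 3 rises turned negative with spike-in centring. At 400 nM 4 fell and 6 rose in U2-OS, and 8 fell and 5 rose in SJSA-1, beside the shares of all genes at that dose given above, and with spike-in centring 0 of these rises were called. At 100 nM RPAP2, a phosphatase that also serves import of the polymerase, fell by 0.74 ± 0.08 and 1.43 ± 0.08, GPN2, a GTPase of that import, by 0.77 ± 0.13 and 1.35 ± 0.13, and CTDP1, the main phosphatase of the tail, by 1.04 ± 0.09 and 0.90 ± 0.09. SSU72, another such phosphatase, was the one gene of these lists called at 25 nM in U2-OS, where it fell by 0.42 ± 0.08 (limma adjusted p = 0.0245), and the call was lost without any 1 of the 6 arrays, at -0.44 to -0.41, and with spike-in centring. At the same dose it fell by 0.91 ± 0.08 in SJSA-1.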

How the data were processed

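RNA of 24 samples, 3 per group, was measured on Affymetrix PrimeView arrays. The deposited files give linear intensities for each probe set on each array, made by the authors from the scans; the submitters' processing notes name MAS5 and RMA without saying which made which values, so it is not settled here. The deposited SJSA-1 intensities fall on whole hundredths of a log2 unit. The 49372 probe sets held 79 controls, 44988 that name 1 gene, 1832 that name several and 2473 others that name none.

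Where several probe sets named a gene, the brightest on average stood for it. Intensities plus 16 were taken to log2 without further scaling. A gene was tested if at least 1 group mean reached 12.73 (percentile 30 of all intensities), which kept 16175 of 18132. All 8 groups entered 1 limma fit (R 4.3.3, limma 3.58.1, 16 residual degrees of freedom) with 13 contrasts and Benjamini-Hochberg adjustment over all genes tested. An exact permutation test of 3 against 3 arrays cannot go below 0.1. The fit was checked on simulated data. The number of arrays limits the precision.

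The members and lists were chosen with earlier results of these data known. All members were named. Values of every array were given for POLR2A, TBP, members called the same way in both lines at 100 nM, and, per line at 400 nM, the 4 members with the largest falls and the 2 with the largest rises. Of each list beside the members, up to 4 genes with the largest changes among those called were eligible.

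The alternatives were centring on each array's median or on spike-ins, quantile normalization, no filter, averaging probe sets, pseudocounts of 1 and 64, only the groups compared, a replicate block, and leaving out each array. Deviations of arrays of the same replicate number correlated at 0.0831 to 0.324 for U2-OS replicate 2, positive in all 6 pairs, but at -0.634 to 0.42 over the other numbers, with pairs below 0 for each, so the numbers were not taken to pair the arrays.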

Additional observations from a re-analysis of the deposited data

Results flagged for a closer look

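The members below changed differently in the lines by the limma test of the difference, each given as the SJSA-1 change minus the U2-OS change in log2(intensity + 16). They were 15.2% of the members at 100 nM and 45.5% at 400 nM, near the 16.9% and 45.9% of all genes. At 100 nM the differences were -1.04 for TBP, -0.59 for GTF2B, -0.54 for TAF4, -0.68 for TAF7 and 0.42 for TAF12. With spike-in centring none of these 5 was called, although the values were -1.12, -0.68, -0.63, -0.77 and 0.33. The difference of TAF4 was also not called under 4 other alternatives, at -0.54 to -0.29.

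At 400 nM the Pol II subunits that differed were POLR2A at -0.89, POLR2E at -0.53, POLR2F at 0.38, POLR2H at -0.38 and POLR2L at -0.63. Among the factors beside TFIID they were GTF2E1 at 0.91, GTF2E2 at 0.39, GTF2F1 at -0.33 and GTF2A1 at 0.57, the last with SJSA-1 levels under the filter intensity in every group, so that its value restates the U2-OS fall and is no measured line difference. In TFIID they were TAF1 at -0.37, TAF5 at 0.92, TAF7 at -0.41, TAF8 at 0.29, TAF10 at -0.32 and TAF12 at 0.67. With spike-in centring POLR2F, GTF2A1, GTF2E2 and TAF8 reversed and were not called, at -0.25, -0.057, -0.24 and -0.34. GTF2E1, TAF5 and TAF12 were also not called there, at 0.28, 0.29 and 0.04. As a mean of probe sets GTF2E1, GTF2F1, POLR2E, POLR2F and TAF8 were not, at 0.17, -0.14, -0.20, 0.25 and 0.12. With median centring or quantile normalization GTF2F1, POLR2H, TAF1, TAF7 and TAF10 were not, at -0.28 to -0.16, nor TAF1 and TAF8 with a pseudocount of 64, at -0.15 and 0.16. A fit to only the groups compared did not call GTF2F1, POLR2H, TAF1 and TAF10. Leaving out 1 of the 12 arrays ended some of these calls. For POLR2F these arrays were SJSA-1 DMSO replicate 1 and 400 nM replicate 2, at 0.28 and 0.27, and for POLR2H U2-OS 400 nM replicate 3, SJSA-1 DMSO replicate 2 and SJSA-1 400 nM replicate 3, at -0.35 to -0.27. For TAF1 they were U2-OS DMSO replicate 3 and 400 nM replicate 2 and SJSA-1 DMSO replicate 1 and 400 nM replicate 2, at -0.36 to -0.26. GTF2F1 lost its call without any 1 of 6 arrays, at -0.32 to -0.25, TAF8 without any 1 of 7, at 0.23 to 0.29, and TAF10 without any 1 of 9, at -0.32 to -0.23. The difference of POLR2F rests on the brighter of its 2 probe sets, which changed by -0.10 in U2-OS without a call. Its other probe set was called higher in U2-OS, at 0.31. In U2-OS this dose cannot be told apart from its own normalization.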

How the results depend on the processing

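Centring on the spike-ins changed most. It left 0 rises at 100 nM in U2-OS, 1 at 400 nM in U2-OS, and 0 at 25, 100 and 400 nM in SJSA-1. In U2-OS it ended the calls of the falls of TBP and TAF15 at 100 nM and of GTF2E2 and TAF3 at 400 nM. In SJSA-1 it called 0 falls at 25 nM and 30 falls at 400 nM, GTF2A1 among them though under the filter intensity there. It called 9 and 8 members in U2-OS between 25 and 100 and between 100 and 400 nM, 10 and 7 in SJSA-1, and 0 and 9 line differences at 100 and 400 nM. It reversed, in U2-OS, POLR2F (-0.093) and TAF10 (-0.12) at 100 nM and GTF2F1 (-0.028), GTF2F2 (-0.038) and TAF15 (-0.034) at 400 nM. In SJSA-1 at 100 nM it reversed POLR2E (-0.19), POLR2F (-0.20), POLR2G (-0.23), POLR2K (-0.086), POLR2L (-0.19) and TAF3 (-0.035). At 400 nM there it reversed POLR2E (-0.66), POLR2F (-0.66), POLR2G (-0.54), POLR2I (-0.65), POLR2J (-0.47), POLR2K (-0.54), POLR2L (-0.49), TAF6 (-0.50), TAF8 (-0.64) and TAF10 (-0.66). Line differences at 400 nM reversed for POLR2F (-0.25), GTF2A1 (-0.057), GTF2E2 (-0.24) and TAF8 (-0.34). This centring shifts all genes of an array together, and what moved the spike-in levels was not tested. A fit to only the groups compared called 4 rises and 1 fall at 25 nM in U2-OS, and 1, 4 and 6 rises at 25, 100 and 400 nM in SJSA-1. The mean of probe sets gave 1 rise at 25 nM in SJSA-1, 8 line differences at 100 nM, and reversed TAF1 at 400 nM in U2-OS (0.052) and TAF8 at 400 nM in SJSA-1 (-0.017). Quantile normalization and a pseudocount of 1 each left 1 fall at 25 nM in SJSA-1. The cause was not tested. Leaving out 1 array gave 3 to 6 rises at 100 nM in U2-OS, 0 to 2 rises and 1 to 3 falls at 25 nM and 4 to 9 rises at 100 nM in SJSA-1, and 3 to 6 line differences at 100 nM, with no sign reversed among called values. The replicate block brought 4 values past the threshold: POLR2H at 400 nM, 0.18 in U2-OS and -0.20 in SJSA-1, TAF13 at 100 nM in SJSA-1, 0.24, and the line difference of GTF2E2 at 100 nM, 0.29. It changed no other call.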
